A study of Mus musculus with 183 samples.

Results

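The SR splicing factors described here are the 10 genes Srsf1, Srsf2, Srsf3, Srsf4, Srsf5, Srsf6, Srsf7, Srsf9, Srsf10 and Srsf11, taken by name out of 53380 genes in the counts of an mRNA half-life experiment. All 10 also had an entry among the 7240 mRNAs with a measured relative binding to the decay factors MTR4, SKIV2L and XRN1. The genes were chosen by name and not by a measured value, though with earlier results of these data known. The half-life experiment comprised 47 RNA-seq libraries of mouse embryonic stem cells (mESCs), in which actinomycin D, an inhibitor of transcription, was added and the remaining RNA was followed over time. The lines 5F and 7E were followed, each a single clone. Clone 5F carries Rosa26 Cre-ERT2 and Skiv2l fl/fl, so that 4-hydroxytamoxifen (4OHT) lets the recombinase excise part of Skiv2l. Clone 7E is Aven-/-, with Rosa26 Cre-ERT2 and BirA-V6 by the labels (BirA-V5 in the study's methods), and its half-life labels give tagged Skiv2l alleles, whereas labels of other samples of this clone add Skiv2l fl/fl. Both lines were grown in serum and LIF, without 4OHT (day 0) or with 0.1 µM 4OHT for 4 days (day 4). Each was sampled after mock treatment with the solvent and at 120, 240 and 360 min of actinomycin D, at 5 µg/µl by the labels and 5 µM by the methods of the study. The methods give the mock treatment as 360 min long, and it stands here as 0 min of actinomycin D. Each of the 16 groups held 3 libraries, except clone 5F at day 0 and 120 min with 2, and the study calls the replicates technical, so that p-values measure the spread between such libraries only.

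SR proteins bind pre-mRNA through RNA recognition motifs and, through a domain rich in arginine and serine, help the spliceosome to find splice sites. They are known to set their own levels: many SR genes can include a poison exon, an alternative exon with a stop codon that comes too early, and the resulting mRNA is degraded by nonsense-mediated decay (NMD) or kept in the nucleus. MTR4 is a helicase that feeds RNA to the nuclear exosome, SKIV2L is the helicase of the cytoplasmic Ski complex, which feeds mRNA to the cytoplasmic exosome from the 3′ end, and XRN1 degrades mRNA from the 5′ end in the cytoplasm. AVEN is a protein known to bind RNA.

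In the Gencode M21 annotation of GRCm38, 9 of the 10 genes had at least 1 transcript marked for NMD, 15 of 85 annotated transcripts in all. For 6 of them (Srsf3, Srsf4, Srsf6, Srsf7, Srsf9 and Srsf11) the premature stop codon lay in an exon that did not overlap any exon of the transcript on which the study counted binding. In Srsf5 the stop codon lay outside that transcript, in a longer form of an exon of 266 bases. In Srsf1 and Srsf2 no annotated, unsplit stop codon of an NMD transcript lay outside the exons of the counted transcript, and Srsf10 had no transcript marked for NMD. The stop codons of the poison exons and of the longer Srsf5 exon are shown in capitals with the bases around them, read from the GRCm38 genome on the strand of the gene, because they are what makes these isoforms non-productive.
Srsf3, chr17:29039472-29039501, plus strand, in an exon of 456 bases: tctcaccaccctcTGAatctgcattagcca
Srsf4, chr4:131884375-131884404, plus strand, in an exon of 207 bases: tcatgccccagctTAGagtgcttcacccta
Srsf5, chr12:80947116-80947145, plus strand, in an exon of 266 bases: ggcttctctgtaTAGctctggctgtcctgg
Srsf6, chr2:162932951-162932980, plus strand, in an exon of 268 bases: agccttttgccatTAGacgcagggtgatgg
Srsf7, chr17:80205041-80205070, minus strand, in an exon of 460 bases: tgagtcagtcgcctTGAttcagaatgtcac
Srsf9, chr5:115328413-115328442, plus strand, in an exon of 358 bases: tacggattcacagTAGaagtactccggact
Srsf11, upstream poison exon, chr3:158024196-158024225, minus strand, in an exon of 109 bases: tccctggttcagccTGAactatataccagg
Srsf11, downstream poison exon, from another NMD transcript, chr3:158023297-158023326, minus strand, in an exon of 117 bases: cagcttttgaaagtTGAgagcacacccctg

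Srsf1 lies at chr11:88047373-88053755 (plus strand), Srsf2 at chr11:116849901-116853094 (minus), Srsf3 at chr17:29032628-29043373 (plus), Srsf4 at chr4:131873617-131901706 (plus) and Srsf5 at chr12:80945504-80950507 (plus). Srsf6 lies at chr2:162931528-162937121 (plus), Srsf7 at chr17:80200080-80207307 (minus), Srsf9 at chr5:115327177-115333080 (plus), Srsf10 at chr4:135855747-135869908 (plus) and Srsf11 at chr3:158010473-158036639 (minus). The stop codon opened at base 13 of the exon in Srsf5, at base 26 in Srsf7, at base 32 in Srsf3, at base 80 in Srsf9, at base 113 in Srsf4 and at base 150 in Srsf6. In Srsf11 it opened at base 21 of the upstream and base 48 of the downstream exon. The counts were made per gene, so productive and poison isoforms were counted together and the RNA levels and rates below are for their sum. The counted transcripts ranged from 1162 bases in Srsf9 to 5362 bases in Srsf1, which has a 3′ untranslated region of 4149 bases, against a median length of 3106 bases over 7231 mRNAs. The libraries do not keep the strand. Exons of Srsf2 overlap those of Mettl23 and Mfsd11 on the opposite strand, those of Srsf1 overlap the antisense RNA Gm11508 and those of Srsf4 overlap Gm12992, so reads in the overlaps cannot be told apart. The exons of the counted transcripts of the other 7 genes overlap no other annotated exon.

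Library totals ranged from 24440935 to 34114250 counts. Counts were divided by a size factor within each time point and scaled by the ERCC spike-ins, RNA added at lysis, which placed the typical library at 64.9% of mock at 120 min, 53.1% at 240 min and 43.8% at 360 min. The 8 listed markers of mESCs, such as Pou5f1 and Nanog, were high in all mock libraries (lowest 73.8 CPM, counts scaled to the library total), while markers of other cell types reached at most 52.1 (Pax6, neural), 36.9 (Gata4, primitive endoderm), 5.14 (Eomes, mesoderm) and 5.04 (Thy1, fibroblast) CPM, whose part in the results was not tested. In clone 7E, the mock level of Skiv2l fell by 1.32 ± 0.07 (SE) on the log2 scale from day 0 to day 4 (edgeR quasi-likelihood test, adjusted p = 7.78e-13). In clone 5F it was 4163 ± 36.5 normalised counts (SD, n = 3) in mock libraries at day 0 and 4134 ± 296 (SD, n = 3) in the libraries labelled day 4 (adjusted p = 0.91), so that directions drawn from this clone concern the labels and not a measured loss of Skiv2l mRNA. Already at day 0, Skiv2l was lower in clone 7E than in clone 5F, with 969 ± 67.5 normalised counts (SD, n = 3) and a log2 difference of −2.10 ± 0.05 (adjusted p = 1.1e-19). Aven stood at 66.9 normalised counts in clone 7E and 1004 in clone 5F at day 0. The ratio of mRNA to spike-in counts in mock libraries was 153 ± 2.35 (SD, n = 3) in clone 7E at day 4 against 319 ± 5.59 at day 0, and fewer cells and less RNA per cell cannot be told apart.

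Per kilobase of the counted transcript, Srsf2 was the most abundant SR mRNA in mock libraries of clone 5F at day 0, with 8375 ± 405 normalised counts (SD, n = 3). Srsf5 followed with 6251 ± 129, then Srsf1, the founding member of the family, with 5797 ± 196, Srsf7 with 5140 ± 195, Srsf6 with 4687 ± 143 and Srsf3, the smallest SR protein, with 4180 ± 209. Srsf11 (2371 ± 64.1), Srsf9 (2051 ± 73.9), Srsf10 (1410 ± 96.4) and Srsf4 (719 ± 44.3) were lower. No pair of neighbours in this order overlapped in their libraries. The same 10 genes at day 0 in clone 7E ranged from 8469 ± 394 for Srsf2 to 1007 ± 50.4 for Srsf4 per kilobase, and there Srsf6 overlapped Srsf7, and Srsf11 overlapped Srsf9. These levels rest on 1 transcript length per gene.

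All 10 SR mRNAs fell after actinomycin D in each of the 4 combinations of clone and day (edgeR quasi-likelihood test of the slope over time, highest adjusted p = 3.2e-05, for Srsf4 in clone 7E at day 4). The share of all genes that fell was 89.6% and 90.8% in clone 5F at day 0 and day 4, and 92.6% and 94.2% in clone 7E, so that 10 of 10 is close to the share among all genes. The median slope of the 10 was −0.24 log2 per hour in clone 5F at day 0 against −0.22 for all genes tested. In clone 7E at day 0 the medians were −0.22 and −0.22. With scaling by TMM, which uses no spike-ins, the median of all genes moves to between −0.00 and 0.01, and slopes are then relative to it: 4, 5, 2 and 3 of the 10 then passed as lower (clone 5F at day 0 and 4, clone 7E at day 0 and 4), and Srsf9 passed as higher in each, as did Srsf1 in clone 7E at day 0. Of all genes, 5879 of 17032, 5293 of 16898, 5259 of 16418 and 4605 of 16702 passed as lower in the same order. As higher passed 4892, 5079, 4847 and 4371 genes.

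Srsf9 was the most stable of the 10 in all 4 combinations. Its mock libraries in clone 5F at day 0 held 2424, 2285 and 2441 normalised counts, and at 360 min between 1470 and 1526 were left, 62.7% of mock. The half-life of Srsf9, from a straight line through ln(normalised count + 1), was 515 min (458 to 589 min within 1 SE) in clone 5F at day 0, longer than that of 83.8% of 7227 mRNAs. In clone 7E at day 0 it was 452 min (418 to 491). Srsf1 came next, with 337 min (317 to 361) in clone 5F and 344 min (326 to 365) in clone 7E at day 0. The intervals of Srsf9 and Srsf1 did not overlap in either.

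At the other end stood Srsf4 and Srsf5. The half-life of Srsf4 was 189 min (166 to 219) in clone 5F and 200.1 min (173 to 238) in clone 7E at day 0. Srsf5 had 191 min (181 to 202) and 199 min (189 to 210), and 27.1% and 26.3% of mRNAs decayed faster. Srsf2 (212 min, 193 to 235) and Srsf3 (214 min, 203 to 226) in clone 5F at day 0 were within 1 SE of each other. Srsf7 followed with 240.4 min, and Srsf6, Srsf11 and Srsf10 lay at 272, 273 and 279.8 min, close to the median of 287 min over mRNAs. In all, 8 of 10 members were below that median in clone 5F at day 0, and 6 in clone 7E. The member median was 256 min in clone 5F and 268 min in clone 7E at day 0.

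**Figure D1:**
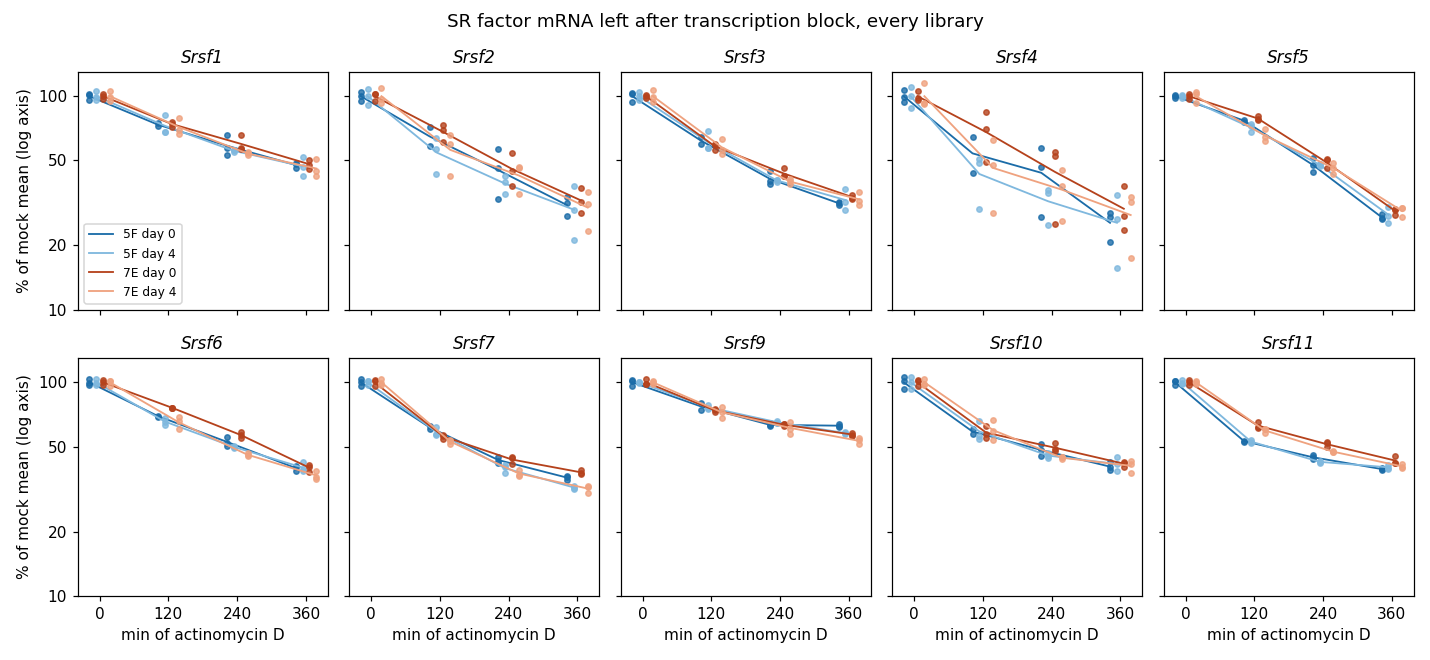
SR factor mRNA left after actinomycin D, as a percentage of the mean of the mock libraries of the same clone and day (log axis), against minutes of treatment (groups are shifted sideways for clarity); each point is 1 library and lines join group means. Srsf9 stays at 62.7% of mock at 360 min in clone 5F at day 0, Srsf5 falls to 27.2%, and the libraries of Srsf2 and Srsf4 are spread far wider than those of the other genes.

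A straight line hid how the fall was spread over time. The early rate, from mock to 120 min, was compared with the late rate, from 120 to 360 min, in 1 fit with each time as its own level. Mock cells were kept in solvent for 360 min, so the early rate also compares unlike times since the change of medium. The part of this was not tested. For most genes the early rate was the steeper one: the median difference, early minus late, was −0.24 log2 per hour over all genes in clone 5F at day 0. Srsf5 went the other way at day 0. In clone 5F its 2 libraries at 120 min held 77.7% and 75.9% of the mock mean, and its libraries at 360 min 26.5%, 26.9% and 28.0%. In clone 7E they held 80.4%, 78.5% and 77.1% at 120 min and between 27.8% and 29.7% at 360 min.

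For Srsf5 this gave an early rate of −0.19 ± 0.03 (SE) log2 per hour and a late rate of −0.38 ± 0.02 in clone 5F, where the medians of all genes were −0.39 and −0.13. The difference was 0.19 ± 0.04 (edgeR quasi-likelihood test, adjusted p = 0.0042). In clone 7E the rates were −0.17 ± 0.03 and −0.36 ± 0.01, and the difference 0.19 ± 0.03 (adjusted p = 2.3e-04). A steeper late rate passed the test in 0.564% of genes in clone 5F and 0.993% in clone 7E at day 0, and in no other member. The call in clone 5F was lost without replicate 3 (0.12, adjusted p = 0.29) and without replicate 1 (0.23, adjusted p = 0.051), where 1 library is left at 120 min and is assumed to vary like the other groups, and in clone 7E without replicate 3 (0.12, adjusted p = 0.064). Its sign was kept there and under the 3 other scalings.

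At day 4 the 120 min libraries of Srsf5 were lower: 73.8%, 72.4% and 67.7% of mock in clone 5F and 70.5%, 64.6% and 61.7% in clone 7E, in both clones below all those of day 0. The share of all genes whose libraries separate like this was not counted. The Srsf5 difference of rates was 0.09 ± 0.04 (adjusted p = 0.074) in clone 5F. It was past the threshold there with scaling by time point depth (0.11, adjusted p = 0.040) and with TMM (0.36, adjusted p = 6.2e-05). In clone 7E it was −0.01 ± 0.05 (adjusted p = 0.88). A steeper late rate passed the test in 0.544% of genes in clone 5F and 0.335% in clone 7E. The change from day 0 to day 4 in this difference was tested after these values were seen. For Srsf5 it was −0.20 ± 0.06 in clone 7E (p = 0.0024, adjusted p = 0.11) and −0.09 ± 0.06 in clone 5F (adjusted p = 0.99). For Srsf6 it was −0.14 ± 0.05 in clone 7E (p = 0.0064, adjusted p = 0.18). No member passed in either clone in edgeR or DESeq2, with 0 of 10 and 2 of 10 at an unadjusted p under 0.05 in clones 5F and 7E. Of all genes 0.346% and 1.22% passed. With no filter on low counts, Srsf4 passed in clone 7E (−0.39, adjusted p = 1.4e-04).

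**Figure D2:**
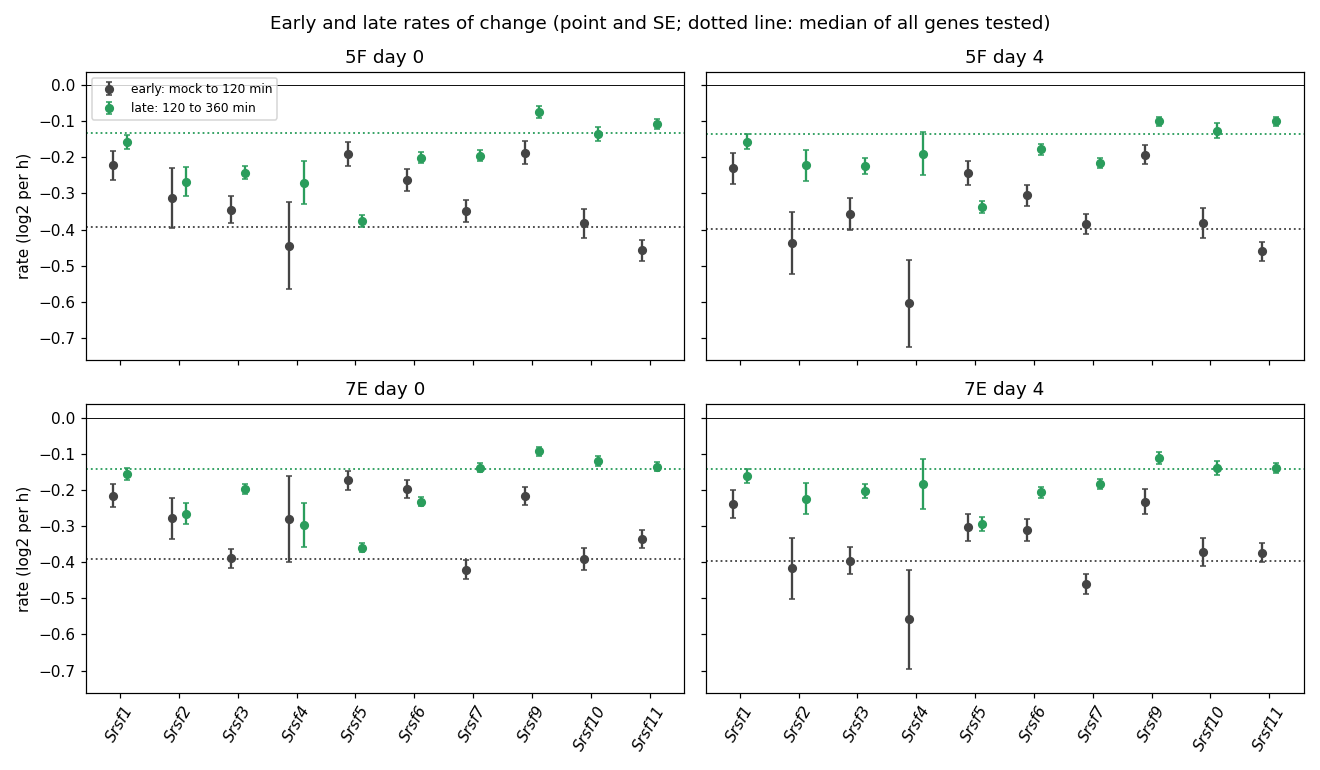
Early rate (mock to 120 min) and late rate (120 to 360 min) of each SR mRNA in log2 per hour, with SE, in the 4 combinations of clone and day; dotted lines give the medians of all genes tested. Srsf5 at day 0 is the member whose late rate passed the test as steeper than its early rate, while Srsf11 in clone 5F drops early and then levels off.

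Srsf7, Srsf10 and Srsf11 had the opposite shape, with the early rate steeper than the late one in all 4 combinations. This was the common direction, with medians of all genes from −0.24 to −0.25 log2 per hour. With TMM neither Srsf7 nor Srsf10 passed in any combination, and Srsf11 passed only in clone 5F at day 4 (−0.10, adjusted p = 0.046). Srsf11, an SR-related factor, was at 53.1% of mock at 120 min in clone 5F at day 0 and still at 39.3% at 360 min. Its early rate was −0.46 ± 0.03 and its late rate −0.11 ± 0.01 log2 per hour (difference −0.35 ± 0.04, adjusted p = 1.3e-05). In clone 7E the difference was −0.20 ± 0.03 (adjusted p = 1.3e-04). The difference for Srsf10, a factor known to act on splicing when dephosphorylated, was −0.25 ± 0.05 in clone 5F (adjusted p = 0.0021) and −0.27 ± 0.04 in clone 7E (adjusted p = 3.0e-05) at day 0. In Srsf7 it was −0.15 ± 0.04 (adjusted p = 0.0072) and −0.28 ± 0.03 (adjusted p = 3.5e-06). With each library's own spike-ins the call was lost at day 4 of clone 7E for all of Srsf7, Srsf10 and Srsf11 (−0.13, −0.09 and −0.09), in clone 5F at day 0 for Srsf7 (−0.06, adjusted p = 0.66) and Srsf10 (−0.16, adjusted p = 0.19), and at day 4 for Srsf7 (−0.20, adjusted p = 0.067). In clone 5F the call was also lost without replicate 1 at day 0 for Srsf7 (−0.10, adjusted p = 0.40) and Srsf10 (−0.21, adjusted p = 0.10) and at day 4 for Srsf7 (−0.14, adjusted p = 0.076), and without replicate 3 at day 0 for Srsf7 (−0.23, adjusted p = 0.056).

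In all, the early rate passed the test as the steeper one in 3 of 10 members in clone 5F at day 0 and 6 of 10 at day 4, against 44.3% and 53.8% of all genes. In clone 7E it passed so in 5 and 6 of 10 members, against 54.3% and 54.8%. These shares are near those of all genes. A member that did not pass need not have had the steeper late rate. The member medians of early minus late were −0.11 and −0.15 log2 per hour in clone 5F at day 0 and day 4, and −0.09 and −0.19 in clone 7E. For Srsf1 the test did not pass in any combination (−0.07 ± 0.05 in clone 5F and −0.06 ± 0.04 in clone 7E at day 0). The direction depends on the spike-in factor: with TMM the medians of all genes lay between 0.00 and 0.02 instead of −0.24 and −0.25. On that scale Srsf1, Srsf3, Srsf5, Srsf6 and Srsf9 passed with a steeper late rate in clone 5F at day 0, as did 2353 of 17032 genes.

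Srsf2 and Srsf4 were measured less precisely than the others. At 240 min of clone 5F at day 0, Srsf4 was at 57.4%, 27.2% and 46.7% of mock in replicates 1, 2 and 3. In clone 7E at day 0 it was at 54.9%, 25.3% and 52.4%. Replicate 2 was the lowest at 240 min in all 4 combinations, replicate 1 at 120 min and replicate 3 at 360 min, for both genes. Srsf2, for instance, had 56.4%, 32.9% and 45.9% at 240 min in clone 5F at day 0. The SE of the Srsf4 slope was 0.04 log2 per hour in clone 5F at day 0. The libraries that were lowest for both genes also had the lowest ratio of mRNA to spike-in counts of their group, in all 4 combinations. In clone 5F at day 0 and 240 min this ratio was 163 in replicate 2, against 227 and 209 in replicates 1 and 3. Both genes overlap exons on the other strand, as does Srsf1. The part of the library ratios and of the overlaps in the spread was not tested.

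The slopes of day 4 and day 0 were compared within each clone, a comparison of 4OHT treatment in both and of a measured fall of Skiv2l mRNA in clone 7E. Size factors were set within each time point over both clones and days, so a change of slope shared by most genes was removed. In clone 5F the difference, day 4 minus day 0, ranged from −0.02 (Srsf7) to 0.01 (Srsf5) log2 per hour, and in clone 7E from −0.04 (Srsf7) to 0.01 (Srsf5). None passed the test in edgeR or DESeq2, and none had an unadjusted p under 0.05 in either tool, where 0.196% and 0.896% of all genes passed in clones 5F and 7E. Each library's own spike-ins keep a shared change, and 0 members passed with them. The median difference of all genes was then −0.01 in clone 5F and 0.02 in clone 7E. For Srsf5 the interval of 2 SE ran from −0.03 to 0.05 in both clones, next to a slope of −0.31 in clone 5F and −0.30 in clone 7E at day 0. The intervals were widest for Srsf4, from −0.13 to 0.12 in clone 5F and −0.14 to 0.13 in clone 7E. Treated libraries of the same replicate number and time shared deviations, which these tests left in the errors.

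At day 4 the half-life of Srsf9 was 462 min (435 to 492 within 1 SE) in clone 5F and 403 min (371 to 440.3) in clone 7E, Srsf5 196 and 205 min, and Srsf4 185 and 200.1 min. Clones were compared at day 0 in the same way, so that a difference shared by most genes was again removed. In slope 0 of 10 members differed (0 at an unadjusted p under 0.05, and 0 in DESeq2), with 7E minus 5F from −0.02 (Srsf9) to 0.02 (Srsf11), against 0.0338% of all genes. In the test of whether the change by day differed between clones 0 of 10 members and 0% of genes passed, with 0 members and 477 genes at an unadjusted p under 0.05, and 0 members and 4 genes in DESeq2.

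Mock-treated cells were compared next. Srsf4 was the SR mRNA whose level differed most between the clones. It had 1529, 1728 and 1609 normalised counts in clone 5F at day 0, and 2183, 2401 and 2235 in clone 7E. All libraries of clone 7E were above all those of clone 5F, also at day 4, where clone 5F held 1610, 1833 and 2018 and clone 7E 2152, 2161 and 2694. How many genes separate the clones like this was not counted. At day 0 the difference was 0.49 ± 0.05 (SE) on the log2 scale, a 1.40-fold higher level (edgeR quasi-likelihood test, adjusted p = 6.5e-08), and 0.32 ± 0.07 with each library scaled to its own spike-ins. Since each line is 1 clone, the clone, its Aven genotype and its lower Skiv2l level at day 0 cannot be told apart.

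Srsf9 was higher in clone 7E too, by 0.17 ± 0.05 (adjusted p = 0.0043). Its 5F libraries ranged from 2285 to 2441 normalised counts and its 7E libraries from 2625 to 2769. With own spike-ins this difference was 0.01 ± 0.06 (adjusted p = 0.91), and without replicate 3 the adjusted p was 0.052. The other 8 members lay between −0.06 (Srsf3) and 0.08 (Srsf6). Thus 2 of 10 members differed between the clones, against 39.7% of all genes. With own spike-ins 7 of 10 differed, 6 of them lower, against 48.5% of genes, and with a replicate block 6 of 10 (Srsf3, Srsf5, Srsf6 and Srsf7 added), against 49.7%.

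From day 0 to day 4, Srsf9 rose in clone 7E by 0.13 ± 0.05 (adjusted p = 0.041), from 2639, 2625 and 2769 to 2963, 2882 and 2936 normalised counts. This call was lost without replicate 1 (0.11, adjusted p = 0.32) and without replicate 2 (0.12, adjusted p = 0.10), with no filter on low counts (0.082), and with a replicate block (0.11). It was the only member called, against 40.1% of genes. In clone 5F 0 of 10 members passed in edgeR and in DESeq2, with 1 at an unadjusted p under 0.05 (Srsf4, 0.16 ± 0.07, adjusted p = 0.080), against 24.5% of genes. Srsf4 passed there with no filter on low counts (0.16, adjusted p = 0.034) and without replicate 2 (0.21, adjusted p = 0.018). Without replicate 2 Srsf3 passed as lower, in clone 5F (−0.14, adjusted p = 0.016) and in clone 7E (−0.16, adjusted p = 0.017). The change by day did not differ between clones by the test in any member (0 of 10, also in DESeq2 and at an unadjusted p under 0.05), against 11.9% of genes.

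These comparisons are within equal amounts of RNA. With each library scaled to its own spike-ins, all genes of clone 7E shifted by a median of −1.11 on the log2 scale from day 0 to day 4, and the 10 members by between −0.97 (Srsf9) and −1.19 (Srsf3). On that scale all 10 were called lower, where 91.7% of all genes were called and 98.3% of these calls were lower. The change differed between clones in all 10, against 83.5% of all genes. Both counts are thus close to the share among all genes.

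**Figure D3:**
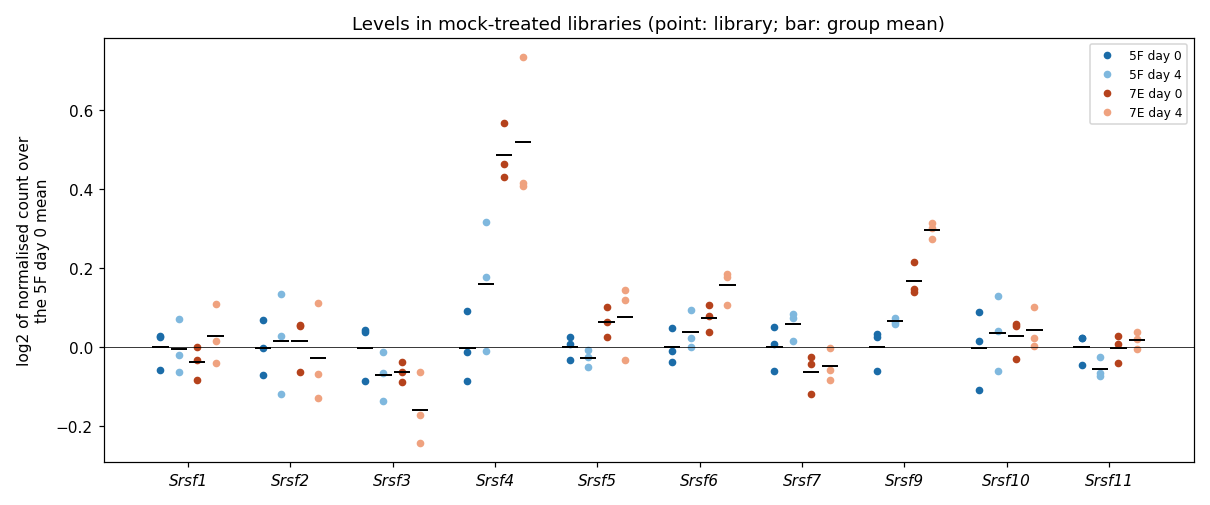
Levels of the SR mRNAs in mock-treated libraries, as log2 of the normalised count over the mean of clone 5F at day 0; each point is 1 library and each bar a group mean (n = 3). Srsf4 stands apart in clone 7E at both days, Srsf9 is higher in clone 7E, and the group means of the other genes lie closer to 0.

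The genes around the SR family gave a frame for these values. Among SR protein kinases and their importin, which set phosphorylation and nuclear entry of SR proteins, 7 of 8 listed genes were tested and all 7 fell after actinomycin D in clone 5F at day 0, with a median slope of −0.38 log2 per hour. Clk1 (−0.78 ± 0.04) and Clk4 (−0.67 ± 0.03), kinases of SR proteins, fell fastest among those named, and Srpk1 fell by 0.16 ± 0.01 per hour. The median was −0.23 over 19 other SR and SR-related genes, all falling, with Son at −0.31 ± 0.01. Over 24 hnRNP and PTB genes, whose products often act against SR proteins at splice sites, it was −0.17, with Hnrnpdl at −0.42 ± 0.01. The SR median of −0.24 thus lay between those of the kinases and of the hnRNP genes. No gene of the 3 lists changed its slope between the days in either clone.

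Counts in mock levels stand against 24.5% of all genes changed by day in clone 5F, 40.1% in clone 7E and 39.7% between clones, in either direction. Of 16349 genes 2095 rose and 1903 fell in clone 5F, and of 16333 genes 3381 rose and 3170 fell in clone 7E. Between clones 3258 of 16299 genes were higher and 3219 lower in clone 7E. Of the other SR and SR-related genes in clone 5F, 6 of 19 rose and 0 fell from day 0 to day 4 (median 0.12), and in clone 7E 7 rose and 1 fell (median 0.11). Srrm2, a large protein of nuclear speckles, rose by 0.59 ± 0.05 in clone 5F (adjusted p = 1.4e-08) and by 0.35 ± 0.05 in clone 7E (adjusted p = 7.0e-06). Luc7l rose by 0.23 ± 0.05 and 0.28 ± 0.05. Srpk2 fell by 0.18 ± 0.06 in clone 5F (adjusted p = 0.020) and by 0.31 ± 0.06 in clone 7E. Between the clones at day 0, 12 of 24 hnRNP and PTB genes were higher in clone 7E and 1 was lower (median 0.12), among them Hnrnph1 with 0.51 ± 0.04 (adjusted p = 3.3e-10). Among hnRNP and PTB genes, 7 rose and 1 fell by day 4 in clone 5F (median 0.06), and 4 rose and 3 fell in clone 7E (median −0.01), Ptbp2 among them with −0.34 ± 0.06. Of the 7 kinases and importin, 1 fell in clone 5F, 1 rose and 2 fell in clone 7E, and 2 were higher in clone 7E than in clone 5F. For the other SR and SR-related genes, 5 were higher and 0 lower in clone 7E. The change by day differed between clones in 0 of 7, 3 of 19 and 1 of 24 genes of the 3 lists, against 11.9% of all genes.

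The early rate passed the test as steeper than the late one in 5 of 7 kinase and importin genes, 7 of 19 other SR and SR-related genes and 4 of 24 hnRNP and PTB genes in clone 5F at day 0, against 44.3% of all genes. Among those passing were Clk2 (−0.66 ± 0.07) and Tra2a (−0.57 ± 0.05). No gene of the lists passed the other way. The counts were 6, 12 and 13 in clone 5F at day 4 (53.8% of all genes), 7, 8 and 5 in clone 7E at day 0 (54.3%), and 7, 14 and 17 in clone 7E at day 4 (54.8%). Son, a large speckle protein, was the one gene of these lists whose difference of rates changed by day, by −0.22 ± 0.05 in clone 7E (adjusted p = 0.016).

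Binding of the decay factors was measured by CRAC, in which RNA crosslinked by UV to a tagged protein is sequenced. For each mRNA the authors divided the scaled, pooled count of each protein by the sum over MTR4, SKIV2L and XRN1, so the shares add to 100% and a rise of one lowers the others. The shares are the authors' values with no replicate error, and depth behind each is unknown, so no test was made. Reads in introns or poison exons outside the counted transcript are not in them.

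Srsf5 had the highest MTR4 share of the 10, 65.4%, above 92.3% of mRNAs, with 19.7% for SKIV2L and 14.9% for XRN1. The median mRNA had 31.9% for MTR4, 26.7% for SKIV2L and 33.7% for XRN1. Srsf10 followed for MTR4 with 41.8%, but its largest share was that of SKIV2L, 50.6%, above 88.8% of mRNAs. Its XRN1 share of 7.55% was above only 2.10% of mRNAs. Srsf7 (48.9% SKIV2L) and Srsf2 (45.1%) had most from SKIV2L as well, as had Srsf11 with 40.1% against 38.0% for XRN1.

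XRN1 took the largest share in Srsf9 (53.9%, above 87.8% of mRNAs), Srsf1 (49.3%), Srsf3 (46.4%) and Srsf4 (39.4%). In Srsf6 the shares were close, with 36.7% for MTR4, 34.9% for XRN1 and 28.4% for SKIV2L. The largest share was thus that of SKIV2L in 4 members, of XRN1 in 4 and of MTR4 in 2, while over the 7240 mRNAs it was SKIV2L in 26.5%, XRN1 in 38.1% and MTR4 in 35.4%. On the log2 scale, MTR4 over SKIV2L ran from 1.73 for Srsf5 and 1.09 for Srsf1 down to −0.87 for Srsf11 and −1.20 for Srsf7, the latter above 13.9% of mRNAs.

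**Figure D4:**
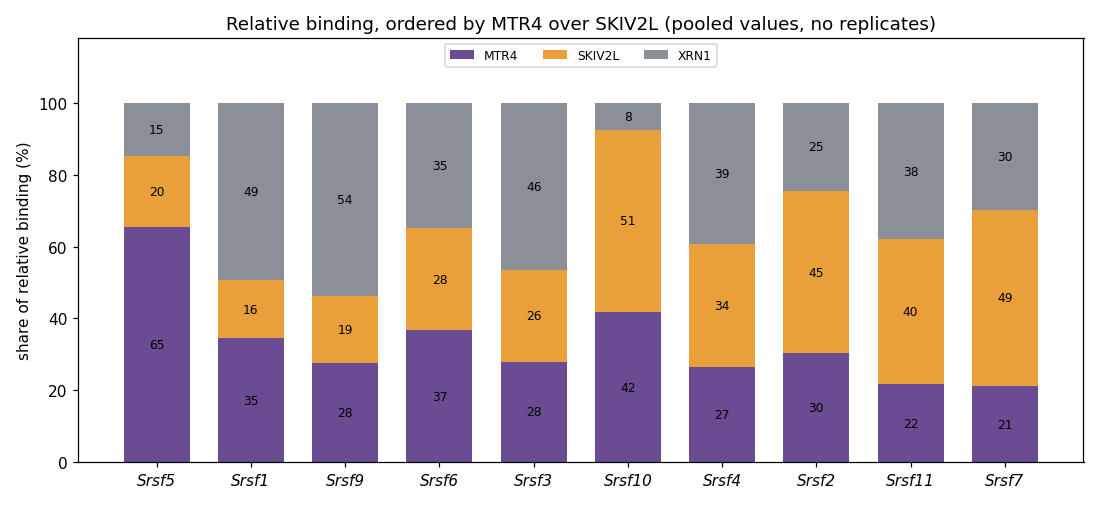
Share of each decay factor (MTR4, SKIV2L or XRN1) in the relative binding of each SR mRNA, in percent, ordered by MTR4 over SKIV2L; bars are the authors' pooled values and carry no error. Srsf5 at the left has 65.4% MTR4, Srsf7 at the right 48.9% SKIV2L, and Srsf10 has 7.55% XRN1.

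Set side by side, the members with the largest XRN1 share, Srsf9 and Srsf1, had the longest half-lives, 515 and 337 min in clone 5F at day 0. Srsf3 and Srsf4, whose largest share was also that of XRN1 (46.4% and 39.4%), had 214 and 189 min, the latter the shortest of the 10. Srsf10 with the smallest XRN1 share had 279.8 min. The shares are pooled values from other cell lines, and no relation between shares and decay was tested. Srsf5, with the largest MTR4 share, was the member whose late rate passed the test as steeper at day 0. The members with the largest SKIV2L share, Srsf10 and Srsf7, differed in slope by −0.01 ± 0.03 and −0.04 ± 0.03 log2 per hour between the days in clone 7E, and neither passed the test.

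Over the 16 group means, each member followed the mean standardised profile of the 10 with Pearson's r from 0.95 (Srsf4) to 0.99 (Srsf6), which includes the gene itself. Among 10593 genes with a mean of at least 100 counts, the non-members closest to that profile were Mtmr9, Nom1, Dmxl1, Nfe2l2 and Xpo1, with r from 0.997 to 0.998 over 16 groups. All groups share the loss of RNA after actinomycin D, which most genes follow.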

How the data were processed

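RNA was depleted of ribosomal RNA and sequenced from unstranded TruSeq v2 libraries. The authors aligned reads to mm10 (GRCm38) with STAR, kept unique reads and deposited whole-number counts per gene (Gencode M16) without normalization. The deposited relative binding is a ratio, made by the authors from CRAC counts pooled per protein. A deposited score of the authors divides it by RNA levels, and the authors' deposited RPKM is a median of the tagged lines. Both served as alternatives only. The authors' fold changes, p-values and half-lives were not used, and 0 count columns were left unused.

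Size factors within each time point were scaled by the median ratio of gene counts to 34 ERCC sequences with a mean above 50. Slopes, rates and mock levels were tested with edgeR 4.0.16 (quasi-likelihood, filterByExpr, R 4.3.3) over all genes, each comparison on its own samples, with Benjamini-Hochberg adjustment and a threshold of 0.05. DESeq2 1.42.0, other scalings, no filter, a replicate block and leaving out each replicate were alternatives. Half-lives used a pseudocount of 1. The chi-square per gene between replicate libraries was at least 2.59, so none was treated as a copy.

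The members, lists and tests were chosen with earlier results of these data known. All 10 members are named. From each related list, up to 3 called genes with the smallest adjusted p per comparison were eligible, together with the 5 genes closest to the mean member profile, and Skiv2l and Aven as checks of the labels. Symbols came from Gencode M21, for 53274 of 53380 genes, and sequences from the GRCm38 genome of RefSeq.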

Additional observations from a re-analysis of the deposited data

How the results depend on the processing

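The spike-in factor sets the absolute direction of decay, and the replicates are few. With TMM the members whose slope passed in either direction were 5, 6, 4 and 4 (clone 5F at day 0 and 4, clone 7E at day 0 and 4), of which 4, 5, 2 and 3 were lower. Of all genes 63.2%, 61.4%, 61.6% and 53.7% passed in either direction. Slopes turned positive in clone 5F at day 0 for Srsf1 (0.037), Srsf9 (0.10) and Srsf10 (0.00058), at day 4 for Srsf1 (0.039), Srsf6 (0.0034), Srsf9 (0.091), Srsf10 (0.013) and Srsf11 (0.0081), in clone 7E at day 0 for Srsf1 (0.048), Srsf6 (0.00096), Srsf9 (0.089), Srsf10 (0.021) and Srsf11 (0.026), and at day 4 for Srsf1 (0.037), Srsf9 (0.078), Srsf10 (0.011) and Srsf11 (0.014). The early minus late rate turned positive under TMM in clone 5F at day 0 for Srsf1 (0.19), Srsf3 (0.15), Srsf6 (0.19), Srsf7 (0.10), Srsf9 (0.14), Srsf10 (0.0076), Srsf2 (0.21) and Srsf4 (0.080), at day 4 for Srsf1 (0.19), Srsf2 (0.050), Srsf3 (0.13), Srsf6 (0.14), Srsf7 (0.094), Srsf9 (0.17) and Srsf10 (0.0076), in clone 7E at day 0 for Srsf1 (0.20), Srsf2 (0.25), Srsf3 (0.066), Srsf9 (0.13) and Srsf11 (0.058), and at day 4 for Srsf1 (0.17), Srsf2 (0.061), Srsf3 (0.059), Srsf5 (0.24), Srsf6 (0.15), Srsf9 (0.13), Srsf10 (0.019) and Srsf11 (0.019). TMM removes the common fall by construction.

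With each library's own spike-ins, members with unequal rates were 2 and 2 in clone 5F, against 19.3% and 39.5% of genes. In clone 7E at day 4 they were 0 (Srsf6 0.040 and Srsf9 0.023 there), against 15.5%. Mock levels differed in 10 members by day in clone 7E (91.7% of genes) and in 7 between clones (48.5%). In the test between clones of the change by day they differed in 10 (83.5%). The day 4 values in clone 7E were −1.03 for Srsf1, −1.06 for Srsf4, −1.08 for Srsf5, Srsf7, Srsf10 and Srsf11, −1.02 for Srsf6 and −0.97 for Srsf9. Between clones, Srsf2 was −0.15, Srsf10 −0.13, Srsf5 −0.10 and Srsf6 −0.08, and the change by day differed by −0.96 for Srsf1 and Srsf11, −0.99 for Srsf5 and Srsf6 and −0.97 for Srsf9. With no filter, mock levels changed by day in 1 member in clone 5F and 0 in clone 7E, and the early-late difference in 1 member in clone 7E. Deviations of same-numbered libraries correlated over 0.1 in 6 of 18 pairs of mock libraries, 13 of 15 at 120 min, 15 of 18 at 240 min and 13 of 18 at 360 min, and in 141 of 345 pairs with different times included. The median was 0.46, 0.29 and 0.33 within the treated times, and −0.37, −0.32 and −0.27 for different numbers. Deviations from a group mean cancel within the group, so the negative values follow from the positive ones and are no separate evidence. Treated libraries of the same number and time thus shared deviations, but the main tests did not take the numbers as pairs. The replicate block has 1 effect per number over all times, so it cannot take up a shift within 1 time point. Such shifts stay in the errors of the slopes and rates. With the replicate block, 0 members changed in mock level in clone 7E and 6 differed between clones, and members with unequal rates were 4, 4, 6 and 4.

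Leaving out each replicate, members with unequal rates ranged from 1 to 6 and 2 to 8 in clone 5F at day 0 and 4, and from 5 to 6 and 3 to 8 in clone 7E. Members with a changed mock level ranged from 0 to 2 in clone 5F and 0 to 1 in clone 7E, and from 1 to 3 between clones. All 10 decayed throughout, and 0 changed their slope. Half-lives moved by more than their error in 32 of 40 without replicate 1 and in 40 of 40 under TMM. Over all genes, changed decay in clone 7E was called for 156 genes, 267 with DESeq2, 236 with TMM and 15 to 70 without a replicate, and in clone 5F for 35, 19 with own spike-ins and 2 to 3 without a replicate. Between clones it was 6, 32 with DESeq2, 90 with TMM, 2 with own spike-ins, 3 with no filter and 0 to 1 without a replicate, and the change by day differed in 0, 4 with DESeq2 and 1 with own spike-ins. Genes with a slope past the threshold in either direction went under TMM from 15220 to 10106 and from 15728 to 8976 in clone 7E, and of these calls 52.0% and 51.3% were lower, against 99.9% and 100.0% before. In clone 5F 5879 of 10771 and 5293 of 10372 calls were lower under TMM. Unequal rates went from 7646 to 5055 and from 9211 to 4774 genes (clone 5F at day 0, clone 7E at day 4), and steeper early rates made up 53.5%, 50.1%, 49.7% and 58.6% of the TMM calls in the 4 combinations, against 98.7%, 99.0%, 98.2% and 99.4%. Own spike-ins gave 3295 and 2585 genes, and leaving out replicate 1 gave 3061, 4971 and 5287 (clone 5F at day 0 and 4, clone 7E at day 4). Own spike-ins raised changed mock levels from 6551 to 14976 in clone 7E and from 2055 to 14373 in the test between clones. The lower share of mock calls went with them from 47.6% to 68.9% in clone 5F, from 48.4% to 98.3% in clone 7E, from 49.7% to 79.5% between clones and from 44.3% to 99.6% in the test of the change. Without replicate 1 mock calls were 1847 against 3998 (clone 5F), 4325 (clone 7E) and 752 (change by day between clones), and without replicate 3 they were 1947 in clone 5F and 1347 in the change by day between clones. The early-late change gave 62 and 212 genes, 40 with own spike-ins in clone 5F, 111 and 443 with no filter, 333 with DESeq2 in clone 7E, and 25 to 47 and 51 to 75 without a replicate. Of 30 binding percentiles, 5 moved by over 10 points with the authors' RPKM-normalized values and 3 among mRNAs with RPKM of at least 10.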
